A study of Mus musculus with 2 samples.

Results

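The genes described here are 9 components and regulators of complement, C3, C4b, C1ra, C1s, Cfb, Cfd, Serping1, Cd55 and Cd59a, chosen by name from 20211 gene symbols and followed through RNA sequencing of cultured perivascular cells (PVCs) of the mouse aorta. One library came from wild type (WT) PVCs and 1 library from PVCs labelled as knockout for Kai1 (Kai1 KO), both of the C57BL/6 background and both grown in DMEM with 10% fetal bovine serum. Kai1, whose gene symbol is Cd82, encodes a tetraspanin of the cell surface. The mice of the study were adult and of either sex. The number of animals behind each library and the design of the Kai1 KO allele are not given in the sources used here, and the methods of the study give a higher serum share for these cells than the labels do.

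Complement is a cascade of plasma proteins that tags surfaces for removal and can open a pore in membranes. The classical pathway starts when the C1 complex, in which the protease C1r activates the protease C1s, cleaves C4 and C2. All pathways meet at C3, and the alternative pathway amplifies C3 cleavage through factor B (Cfb) and factor D (Cfd). C1 inhibitor (Serping1) blocks C1r and C1s, CD55 takes apart the enzymes that cleave C3, and CD59 blocks the membrane pore. Most plasma complement comes from the liver, and stromal cells such as fibroblasts and smooth muscle cells also make components of it.

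Among these 9 genes, the regulator Serping1 stood at 44.4 RPKM in WT and at 7.47 RPKM in Kai1 KO, that is 5.94-fold lower. RPKM are reads normalised to transcript length and to the number of mapped reads, so that levels of different genes can be compared. C1s, Cfb and Cd59a were also more than 2-fold lower in the Kai1 KO library, C1ra and C3 were close to equal in the libraries, Cd55 was 1.62-fold higher, C4b was low in both, and Cfd was listed at 0 in both. Thus 4 of the 7 members with a mean level of 1 RPKM or more were more than 2-fold lower. The share was 7.81% among the 10068 genes kept by the same filter. One of the 4, Cfb, passed the filter through its WT value. With 1 RPKM added to each value, the count was 3 of 7 members, against 572 of the 10068 genes. The members were chosen with earlier results of these data known, so that these counts only describe them. In such bulk RNA, fewer cells of a type and less RNA per cell cannot be told apart. With 1 library per genotype there is no replicate check and no test, and the differences include any difference between animals, cultures and preparations of the libraries.

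**Figure D1:**
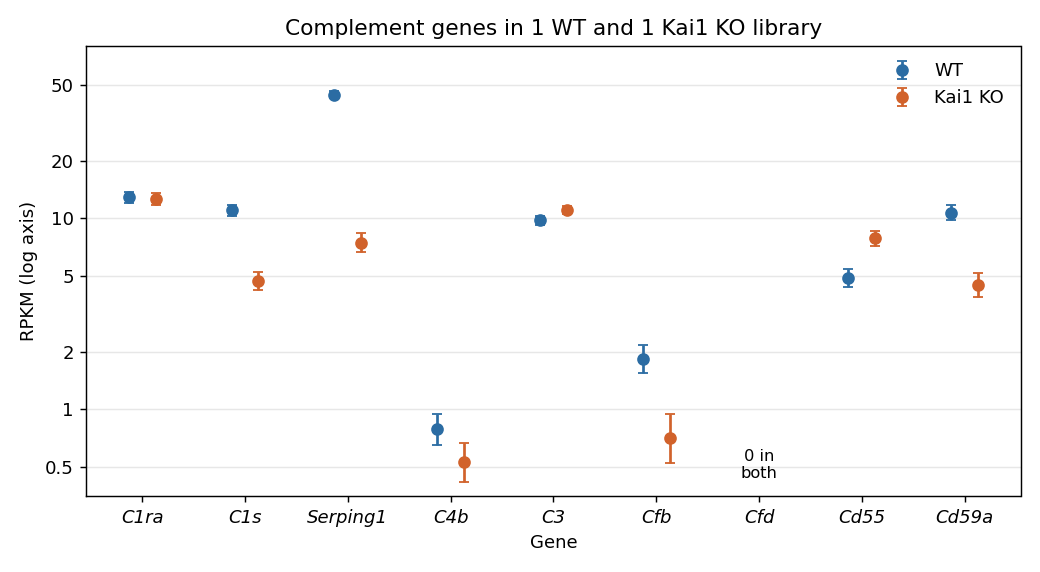
RPKM on a log axis for each of the 9 genes in the WT library (blue) and the Kai1 KO library (orange), with bars for the 95% interval of counting error alone. Serping1 has the highest level of the set in WT, 44.4, and 7.47 in Kai1 KO, C1s, Cfb and Cd59a are lower in Kai1 KO, and C1ra and C3 lie side by side.

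Facts of the libraries that bear on all genes are these. Low levels lay on a grid that whole reads would give once 200 bases were taken off each transcript length, and this grid corresponds to a depth of 29500000 reads for WT and 26700000 for Kai1 KO, with any scaling before deposit included. The intervals given below come from these estimated reads, are exact 95% intervals, and cover counting error only. Cd82 itself stood at 12.8 RPKM in WT and 2.62 RPKM in Kai1 KO, from about 614 and 114 reads, so that its RNA was lower but still present in Kai1 KO. Mural markers such as Acta2 (3823 and 2580 RPKM) and Pdgfrb (44.7 and 31.6 RPKM) were present in both libraries and lower in Kai1 KO. The pericyte marker Rgs5 was at 0.063 and 0.233 RPKM. Of 6 mural markers kept, 3 were more than 2-fold lower in Kai1 KO, against 7.81% of all genes kept, and 0 were more than 2-fold higher. These 3 were Tagln (633 and 307 RPKM), Cnn1 (120 and 49.2 RPKM) and Myh11 (2.96 and 0.346 RPKM). The 4 Y-linked genes examined had levels of 0.479 to 6.56 RPKM in WT and were all at 0 in Kai1 KO, so that the sex of the cells and the genotype cannot be told apart. The median log2 ratio over the 10068 genes kept was 0.08, and scaling to Gapdh, at 4238 RPKM in WT and 5997 in Kai1 KO, shifted it by -0.49.

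Promoter sequences are shown for 4 members, C1s and Cd59a with lower, Cd55 with higher and C3 with nearly equal levels in Kai1 KO as deposited, chosen after their values were seen. The set of RefSeq promoter sequences used here (build GRCm38.p6) held an entry for 6 of the 9 members and none for Serping1, C4b and Cfb. The 250 bases before the start of each gene are printed on the strand of the gene, and capitals mark the motif that was found. The stretch of C3 is chr17:57228137-57228386 on the minus strand, that of C1s (C1s1 in RefSeq) is chr6:124542360-124542609 on the minus strand, that of Cd59a is chr2:104095551-104095800 on the plus strand, and that of Cd55 is chr1:130462745-130462994 on the minus strand.
C3: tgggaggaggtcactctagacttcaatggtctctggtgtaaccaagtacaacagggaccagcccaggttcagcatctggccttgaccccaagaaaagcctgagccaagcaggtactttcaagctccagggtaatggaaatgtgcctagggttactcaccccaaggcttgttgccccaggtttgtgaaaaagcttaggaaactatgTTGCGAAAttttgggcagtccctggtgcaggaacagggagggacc
C1s: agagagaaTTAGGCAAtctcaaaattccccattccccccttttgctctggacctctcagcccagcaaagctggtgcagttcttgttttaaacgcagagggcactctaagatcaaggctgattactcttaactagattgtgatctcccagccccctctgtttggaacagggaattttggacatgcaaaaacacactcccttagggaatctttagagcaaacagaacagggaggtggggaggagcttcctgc
Cd59a: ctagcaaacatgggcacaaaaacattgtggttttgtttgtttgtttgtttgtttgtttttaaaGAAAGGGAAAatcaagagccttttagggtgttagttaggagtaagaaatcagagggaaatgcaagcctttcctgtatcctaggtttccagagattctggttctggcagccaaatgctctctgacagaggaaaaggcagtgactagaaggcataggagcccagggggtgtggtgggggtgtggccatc
Cd55: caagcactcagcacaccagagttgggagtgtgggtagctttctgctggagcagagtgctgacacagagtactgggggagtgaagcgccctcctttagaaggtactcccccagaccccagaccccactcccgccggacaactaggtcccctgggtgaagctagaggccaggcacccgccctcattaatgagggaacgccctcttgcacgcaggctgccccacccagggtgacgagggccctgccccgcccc
Of 6 motifs searched on both strands, 1 was found in each of the first 3 printed stretches and 0 in that of Cd55. C3 held the C/EBP core TTGCNNAA with its first base 45 bases before the start, and C1s held the same core, on the other strand, 242 bases before it. This core was found in 9.6% of the 32851 stretches of the same length in that RefSeq set. Cd59a held the IRF motif (GAAA, 2 bases of any kind, GAAA) 187 bases before the start, which 3.0% of the stretches held. The TATA box TATAAA (12.4% of stretches), the STAT motif TTCNNNGAA (7.0%), the NF-kB motif (GGG, 2 bases of any kind, TTTCC; 1.4%) and CCAAT (33.8%) were found in none of the 6 members with an entry, and C1ra and Cfd held 0 of the 6 motifs. The IRF and STAT motifs can overlap each other. The set lists 2 starts for C1s, and the stretch before the other one, chr6:124542322-124542571, held 0 of the 6 motifs. The stretch of Cd55 was the richest in G and C of these, at 64.0% against 44.8% in Cd59a.

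The proteases of C1 were compared first. C1ra, one of the mouse genes for C1r, lies on chromosome 6 from 124462423 to 124473458 (NCBI37, the build used by the authors). WT cells gave 12.9 RPKM and Kai1 KO cells 12.7, from an estimated 967 and 863 reads, a log2 ratio of Kai1 KO to WT of -0.02 (95% interval -0.15 to 0.11). Here and below the ratio was taken after adding 0.1 RPKM to each value, and the interval belongs to the ratio with nothing added. C1ra was thus level between the libraries within counting error, and under scaling to Gapdh its ratio was -0.52, close to the shift of all genes.

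C1s, the protease that C1r activates, lies on the same chromosome 6.9 kb from C1ra and on the opposite strand. WT cells gave 11.0 RPKM and Kai1 KO cells 4.71, from about 893 and 345 reads, a log2 ratio of -1.21 (-1.41 to -1.05). Of the 10068 genes, 5.6% had a lower ratio. The genes for the paired proteases of C1 therefore stood near each other in WT and apart in Kai1 KO. Within a library, where scaling plays no part, the RPKM of C1s was 0.858 times that of C1ra in WT (0.782 to 0.940) and 0.372 times in Kai1 KO (0.327 to 0.421).

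Each of these genes has a close copy that can share reads. The coding sequences of C1ra and C1rb were identical at 98.0% of aligned bases, and 67.8% of the 36-base words of C1ra were also in C1rb. C1rb had 2.95 RPKM in WT and 3.55 in Kai1 KO (log2 ratio 0.26, and -0.23 under scaling to Gapdh). C1s and its copy Gm5077 were identical at 95.7% of bases and shared 38.2% of the words of C1s, and Gm5077 had 0.976 RPKM in WT and 0.319 in Kai1 KO. Both copies were below their partners in both libraries, and Gm5077 was lower in Kai1 KO, as C1s was. The split of reads between such copies by the authors' counting is uncertain. The annotated gene Gm16567 overlaps 576 exon bases of C1s on the opposite strand, and whether the counting used strand is not given in the sources used here.

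Serping1, which encodes C1 inhibitor, the serpin that inactivates C1r and C1s, lies on chromosome 2 from 84605544 to 84615601, 8.64 Mb from Cd82. From about 2052 reads in WT and 313 in Kai1 KO, its log2 ratio was -2.55 (-2.75 to -2.40), and its level in Kai1 KO was 16.8% of that in WT. Only 1.4% of the 10068 genes had a lower ratio. Across the 9 alternative settings and the main one its log2 ratio lay between -3.05 and -2.42. Serping1 made up 46.1% of the summed RPKM of the 9 genes in WT and 15.1% in Kai1 KO, and it shared none of its 36-base words with another coding transcript.

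The level of Serping1 relative to the proteases it blocks differed between the libraries in the same direction for each of them. Serping1 was at 3.45 times the RPKM of C1ra in WT (3.20 to 3.73) and at 0.589 times in Kai1 KO (0.516 to 0.671). Relative to C1s it was at 4.02 times in WT (3.72 to 4.36) and 1.59 times in Kai1 KO (1.36 to 1.85). Serping1 thus lay above both proteases in WT, and in Kai1 KO it lay below C1ra and still above C1s. These are ratios of RNA, and protein was not measured in these data.

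**Figure D2:**
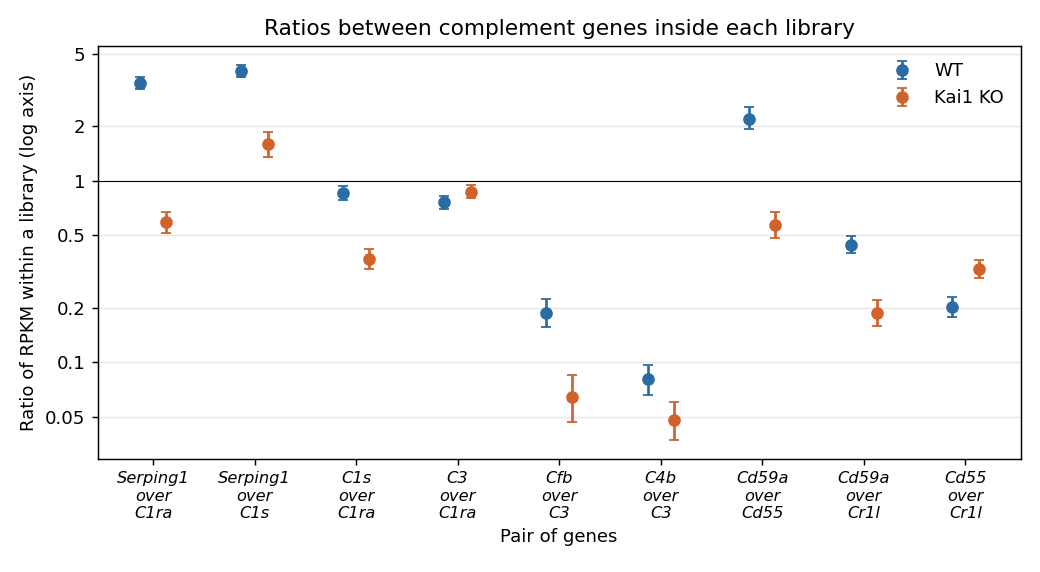
Ratio of RPKM of the first gene to the second inside each library, on a log axis, WT in blue and Kai1 KO in orange, with bars for the 95% interval of counting error. The ratio of Serping1 to C1ra goes from 3.45 to 0.589 and that of Cd59a to Cd55 from 2.20 to 0.571, each crossing the line at 1, while C3 over C1ra stays between 0.701 and 0.947 with its intervals included.

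C3 is the protein on which all pathways converge, and its gene lies on chromosome 17 from 57343397 to 57367559. It stood at 9.78 RPKM in WT and 11.0 in Kai1 KO, from about 1422 and 1452 reads, a log2 ratio of 0.17 (0.07 to 0.28) as deposited and of -0.32 under scaling to Gapdh, so that the sign depends on the scaling. Relative to C1ra, C3 stood at 0.761 times in WT (0.701 to 0.826) and 0.870 times in Kai1 KO (0.799 to 0.947). As deposited, C3 and C1ra were the members with the smallest differences among the 7 kept, and under scaling to Gapdh Cd55, at 0.19, was the nearest to 0.

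Cfb encodes factor B, which carries the catalytic part of the alternative pathway enzyme that cleaves C3. It lies on chromosome 17 from 34993319 to 34999463, and it stood at 1.83 RPKM in WT and 0.706 in Kai1 KO, from about 137 and 48 reads. The log2 ratio was -1.26 (-1.88 to -0.89), and with 1 RPKM added instead of 0.1 it was -0.73, which is less than a 2-fold difference. Cfb passed the filter on mean RPKM through its WT value. Relative to C3, Cfb stood at 0.187 times in WT (0.156 to 0.224) and 0.0641 times in Kai1 KO (0.0470 to 0.0854). An annotated transcript model, Gm20547, covers 82.1% of the exon bases of Cfb on the same strand, so that the assignment of reads is uncertain.

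C4b encodes C4, the relative of C3 that the classical pathway cleaves, and lies 112.5 kb from Cfb. It stood at 0.787 RPKM in WT and 0.528 in Kai1 KO, from about 120 and 73 reads, a log2 ratio of -0.50 (-1.01 to -0.14). C4b was thus lower in the Kai1 KO library beyond counting error, by less than 2-fold in the value itself, with an interval whose lower end was at about 2-fold. The neighbouring C4a, with an RPKM of 0.339 in WT and 0.287 in Kai1 KO, is a near copy of C4b. Their exon sequences were identical at 96.1% of aligned bases and 44.8% of the 36-base words of C4b were also in C4a, so that the assignment of reads between them is uncertain. C4b and C4a were both far below C3 in both libraries.

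Cfd encodes factor D, the protease also known as adipsin, which cleaves factor B and is made in quantity by fat cells. It was listed at 0 in both libraries. At the estimated depth, 3 reads, a floor chosen here, would have given 0.141 RPKM in WT and 0.155 in Kai1 KO. RNA of Cfd below about these levels may have been missed. Of 9 adipocyte markers, Adipoq, Lep, Cidec and Cd36 were at 0 in both libraries, Fabp4 was at 10.6 RPKM in WT and 4.53 in Kai1 KO, and Lpl was at 1.04 and 0.0586. Retn was listed at 0 in WT and stood at 2.17 RPKM in Kai1 KO, from about 53 reads, at least 19.6-fold higher against the level of 3 reads. In all, 4 adipocyte markers were lower and 1 higher in Kai1 KO, with sums of 14.2 and 8.98 RPKM. Properdin (Cfp), which steadies the alternative pathway enzyme, had 3.63 RPKM in WT and 3.65 in Kai1 KO, a log2 ratio of 0.01 that was -0.48 under scaling to Gapdh. The cultures therefore contained RNA of C3, Cfb and Cfp without detectable RNA of Cfd.

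The regulators anchored in the membrane differed from one another. Cd55, whose protein shortens the life of the C3 cleaving enzymes, spans 132335604 to 132359321 of chromosome 1. It stood at 4.86 RPKM in WT and 7.88 in Kai1 KO, from about 334 and 491 reads, a log2 ratio of 0.69 (0.49 to 0.90). The ratio stayed above 0 in each alternative setting, with a lowest value of 0.19 under scaling to Gapdh, and did not reach 2-fold in any of them. The related gene Daf2, which shares some of its 36-base words with Cd55, had 0.195 RPKM in WT and 0.213 in Kai1 KO. Daf2 was thus far below Cd55 in both libraries.

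Cd59a encodes a small protein that keeps the membrane pore from forming, and lies on chromosome 2 from 103935958 to 103955511, 10.63 Mb from Cd82. It stood at 10.7 RPKM in WT and 4.50 in Kai1 KO, from about 507 and 193 reads, a log2 ratio of -1.23 (-1.50 to -1.01). Its copy Cd59b, 4.6 kb away, had 0.202 RPKM in WT and 0.332 in Kai1 KO, from about 4 and 5 reads. Cd59a stood at 2.20 times the RPKM of Cd55 in WT (1.92 to 2.54) and at 0.571 times in Kai1 KO (0.481 to 0.676), so that the order of both regulators was opposite in the libraries. Cr1l (Crry), the rodent regulator that acts on C3 and C4, had 24.1 RPKM in WT and 24.0 in Kai1 KO, which under scaling to Gapdh was a log2 ratio of -0.50. Cr1l was the highest of the membrane regulators in both libraries, and relative to it Cd59a went from 0.444 times in WT to 0.187 times in Kai1 KO and Cd55 from 0.201 to 0.328 times.

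The order of levels differed between the libraries. In WT it was Serping1, C1ra, C1s, Cd59a, C3, Cd55, Cfb and C4b, and C1s with Cd59a and Cd59a with C3 did not differ beyond counting error. In Kai1 KO it was C1ra, C3, Cd55, Serping1, C1s, Cd59a, Cfb and C4b, and Cd55 with Serping1, C1s with Cd59a, and Cfb with C4b did not differ beyond it. Serping1 went from place 1 to place 4 and Cd55 from place 6 to place 3.

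Counted together, 7 of the 9 members passed the filter on mean level, and beside the 4 that were past 2-fold downward 0 were past it upward, against 7.98% of the 10068 genes kept. Calls over all genes kept were 786 lower and 803 higher as deposited, 977 and 594 with equal upper quartiles, 1856 and 278 under scaling to Gapdh, and 1822 and 287 with equal sums. Without the filter, 4 of 9 members were lower, against 9.29% of all 20211 symbols, and 0 were higher, against 5.96%. The median log2 ratio was -1.21 over the 7 members kept, of which Cfb passed the filter through WT, and -0.50 over all 9, with Cfd at 0 in both libraries. The members were chosen with earlier results of these data known, and these counts describe 2 libraries.

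**Figure D3:**
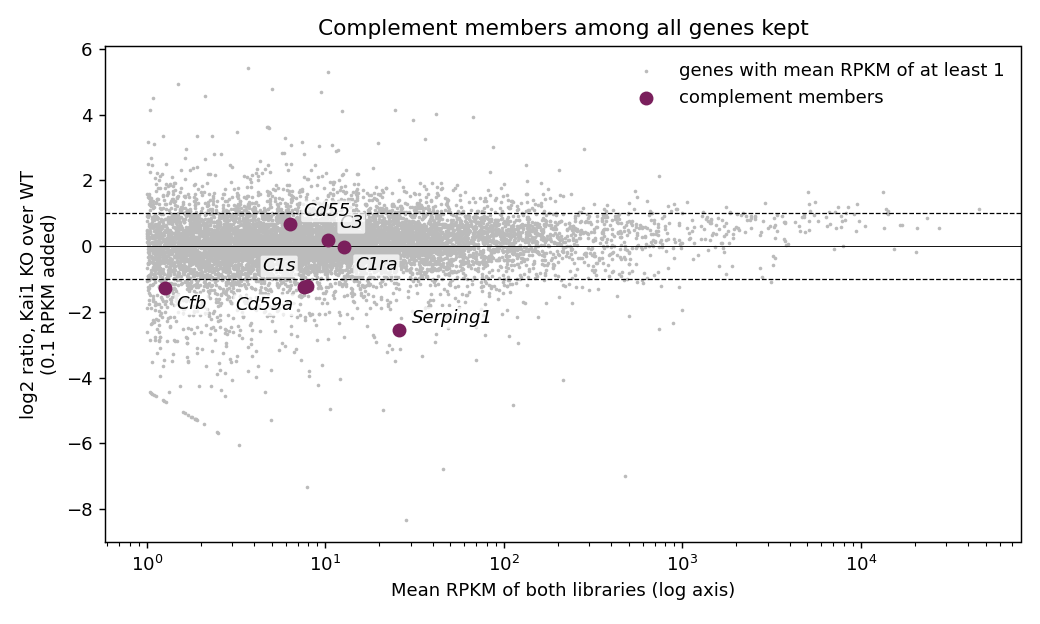
Log2 ratio of Kai1 KO to WT (0.1 RPKM added) against mean RPKM on a log axis, for the 10068 genes kept by the filter on mean level (grey) and the 7 members among them (purple), with dashed lines at 2-fold. Serping1 lies at -2.55, C1s, Cfb and Cd59a lie at -1.21 to -1.26, just past the lower line, and C3, C1ra and Cd55 lie within the lines.

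The rest of the complement system was followed in a list of 63 genes that includes the members, of which 62 were in the tables. Of these, 22 were listed at 0 in both libraries and 21 passed the filter, of which 6 were past 2-fold downward in Kai1 KO and 3 upward, against 7.81% and 7.98% of the genes kept. Under scaling to Gapdh these counts were 7 and 2, where 1856 of the 10068 genes kept were lower and 278 higher. With 1 RPKM added they were 5 and 3, where 572 of the 10068 genes were lower and 550 higher. The median log2 ratio of these 21 was -0.07. Among the 14 genes kept that are not members, 2 were lower and 3 higher. Members made up 4 of the 6 lower genes and 0 of the 3 higher ones. They were chosen with earlier results of these data known, so that this split cannot set them apart from the list. Of the 6 lower genes, Cfb passed the filter through its WT value, and C1s and C1rl may not be separate measurements.

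Recognition molecules start the cascade at a surface. The C1q genes C1qa, C1qb and C1qc, which encode the part of C1 that binds antibody, were listed at 0 in both libraries, although C1ra and C1s were present. Ficolin A (Fcna), a lectin pathway sensor, had 4.06 RPKM in WT and 0.235 in Kai1 KO, a log2 ratio of -3.63 that rested on about 141 and 7 reads. Colec11, a collectin, had 0.486 RPKM in WT and 2.09 in Kai1 KO, or 1.90 on the log2 scale, from about 17 and 66 reads. The long pentraxin Ptx3, which can bind C1q, had 30.4 and 16.3 RPKM, a log2 ratio of -0.89 that was -1.39 under scaling to Gapdh. Colec12 stood at 9.22 RPKM in WT and 7.30 in Kai1 KO, so that 1 of 4 recognition genes kept was past 2-fold downward and 1 past it upward. Both of these, Fcna and Colec11, passed the filter through the library where they were high. The shares over all genes kept were 7.81% downward and 7.98% upward.

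Of the 5 proteases of C1 and the lectin pathway that were kept, 2 were more than 2-fold lower, C1s and C1rl. Among all genes kept the share lower was 7.81%. C1rl, a relative of C1r on the other side of C1ra, had 10.8 RPKM in WT and 4.61 in Kai1 KO. Its log2 ratio of -1.21 was that of C1s, and its estimated reads, 894 and 346, were nearly those of C1s, 893 and 345. Their coding sequences shared no 36-base word, and whether this likeness comes from the counting was not tested, so that they may not be separate measurements. Masp1, which encodes a lectin pathway protease that C1 inhibitor also blocks, had 3.43 RPKM in WT and 2.46 in Kai1 KO (log2 ratio -0.46, -0.68 to -0.27). Along chromosome 6, C1rl, C1ra and C1s were thus lower, level and lower.

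C2, the classical pathway counterpart of factor B, was named after its values were seen, because it lies 85 bases from Cfb. It had 0.871 RPKM in WT, from about 63 reads, and was listed at 0 in Kai1 KO. Against the level that 3 reads would give there, it was at least 18.9-fold lower. Of the terminal components that build the membrane pore, C8g was the one that passed the filter, at 2.88 in WT and 2.47 in Kai1 KO.

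Other regulators in the fluid phase stood opposite to Serping1. C4bp, whose protein takes apart the classical pathway enzyme, lies 172.0 kb from Cd55 and had 2.23 RPKM in WT and 19.7 in Kai1 KO, from about 187 and 1494 reads. Its log2 ratio of 3.09 (2.92 to 3.37) was exceeded by 0.3% of the genes kept. Clusterin (Clu), which binds the forming pore, had 4.92 RPKM in WT and 12.6 in Kai1 KO, a log2 ratio of 1.35 that was 0.85 under scaling to Gapdh. C4bp stood at 0.0502 times the RPKM of Serping1 in WT and 2.63 times in Kai1 KO. The 3 fluid regulators that were kept therefore split into 1 past 2-fold downward and 2 past it upward. Among all genes kept, 7.81% were past it downward and 7.98% upward.

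Among receptors, C3ar1, the receptor for the C3a fragment, had 2.79 RPKM in WT and 2.65 in Kai1 KO. The C5a receptor gene C5ar1 and the complement receptor genes Cr2, Itgax and Vsig4 were listed at 0 in both libraries. C1qbp, which encodes a mitochondrial protein that can bind C1q, had 65.9 RPKM in WT and 85.6 in Kai1 KO, a log2 ratio of 0.38 that was -0.12 under scaling to Gapdh. Of 10 receptor genes 2 passed the filter, and neither was past 2-fold. Below the filter, Cd93 had 0.181 RPKM in WT and 0.0494 in Kai1 KO, from about 35 and 9 reads, and Itgb2 had 0.19 and 0.0562, from about 16 and 4. Their log2 ratios of -0.91 and -0.89 were -1.06 and -1.05 under scaling to Gapdh. Elsewhere in the complement list, Masp2 and Cfi also lay below the filter and went the other way. Masp2 had 0.187 RPKM in WT and 0.553 in Kai1 KO, from about 16 and 42 reads. Cfi was listed at 0 in WT and had 0.16 RPKM in Kai1 KO, from about 8 reads.

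**Figure D4:**
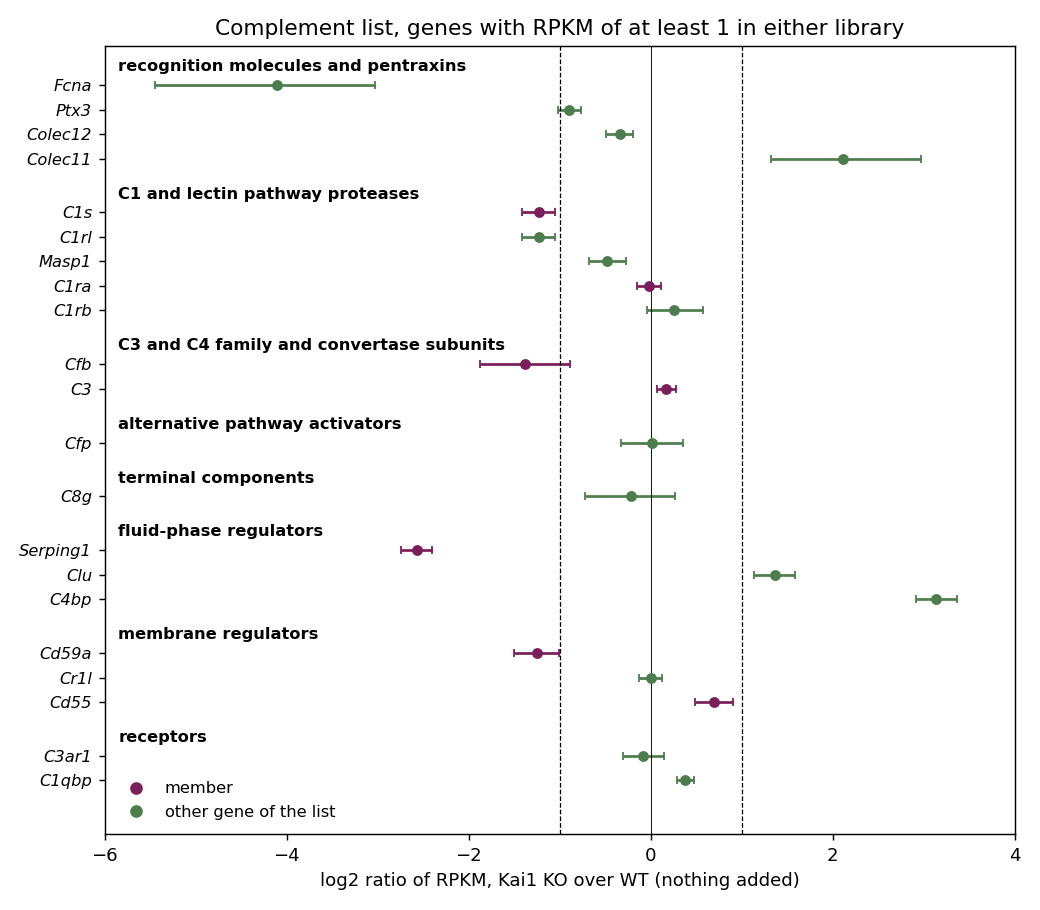
Log2 ratio of RPKM of Kai1 KO to WT, with nothing added, for the 21 genes of the complement list with an RPKM of at least 1 in either library, grouped by role, with bars for the 95% interval of counting error. Members are purple and other genes green, with Fcna and Serping1 farthest to the left and C4bp farthest to the right. C3, C1rb, Cfp and C1qbp lie to the right of 0 as deposited and to the left of it under scaling to Gapdh.

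Markers of other cell types differed between the libraries as well, and their part in these results was not tested. Of 15 macrophage and monocyte markers, 11 were lower in Kai1 KO and 1 higher, and their summed RPKM was 41.2 in WT and 19.7 in Kai1 KO. Csf1r stood at 11.7 and 2.66 RPKM and Fcer1g at 11.3 and 2.47, whereas Cd14 was at 1.98 and 10.3, Ptprc was at 0.0407 and 0.00697, and Adgre1, listed as Emr1, Aif1 and Ctss were at 0 in both. Of 10 endothelial markers, 9 were at 0 in Kai1 KO and 7 were lower there, and the sums of 3.58 and 7.39 RPKM came mainly from Egfl7, at 2.28 and 7.39. Of 9 fibroblast and adventitial markers, 7 were lower and 2 higher. The sums of 2297 and 1121 RPKM came mainly from Ly6a, at 1354 and 569 RPKM, and Col1a1, at 924 and 534. The 2 higher ones were Cd34, at 1.44 RPKM in WT and 7.76 in Kai1 KO, and Gli1, at 0.0585 and 0.249. Of 11 mural markers, 9 were lower and 2 higher, with sums of 4641 and 2978 RPKM. Among markers kept, 4 of 5 for macrophages, 4 of 7 for fibroblasts and 3 of 6 for mural cells were past 2-fold downward. Upward the counts were 1, 1 and 0. For adipocytes 1 of 3 was past it downward and 1 upward, and the 1 endothelial marker kept was past it upward. The shares over all genes kept were 7.81% and 7.98%. Some, such as Myh11 and Retn, passed the filter through the library where they were high.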

How the data were processed

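Total RNA of cultured aortic PVCs was sequenced in 1 WT and 1 Kai1 KO library. The authors aligned reads to mm9 (NCBI37) with TopHat 2.0.9 and Bowtie, with Cufflinks also named in the submitters' processing notes, and deposited 1 RPKM value per RefSeq gene and library. Of 20462 rows, 38 had no symbol and were left out, and 153 repeated symbols were averaged, which left 20211. Log2 ratios of Kai1 KO to WT were taken after adding 0.1 RPKM, genes were kept where the mean of both libraries was 1 RPKM or more, and a call means more than 2-fold. No p-value was computed with 1 library per genotype.

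Reads were estimated from the steps of low RPKM values of genes with 1 annotated transcript of over 800 bases (GENCODE M1), with 200 bases taken off each length. Of the low values, 78.2% in WT and 75.4% in Kai1 KO lay within 0.15 of a whole read. Intervals of levels are exact Poisson intervals and those of ratios exact binomial (Clopper-Pearson) intervals. Coding sequences were aligned globally. All 9 members, genes of the wider list with an RPKM of at least 1 in either library and close copies were named, with the most abundant markers. C2, Gm5077, Cd93, Itgb2, Masp2, Cfi and the C1q and receptor genes at 0 were named after their values were seen. So were the markers Cd14, Cd34, Cnn1, Gli1, Lpl, Myh11, Ptprc, Retn, Pdgfrb and Rgs5. The members and lists were chosen with earlier results of these data known. Alternatives were 2 other pseudocounts, 4 scalings, 2 filters and summed repeated symbols. The ratio and the intervals were tested on simulated data. Python 3.11.15, numpy 2.4.6, pandas 2.3.3, scipy 1.17.1 and Biopython 1.88 were used.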

Additional observations from a re-analysis of the deposited data

How the results depend on the processing

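Only the pseudocounts and scalings can move the log2 ratio of a single member. Under them, 34 of 48 ratios moved by no more than the longer arm of their counting interval, and 14 moved further. That arm is the larger distance from the ratio to an end of its interval. None of the members past 2-fold changed sign. The count of members more than 2-fold lower was 4 except with 1 RPKM added or a filter at a mean of 5 RPKM, where it was 3, and the count higher was 0 under each alternative. The median log2 ratio of the members kept, -1.21 in the main setting, was -0.73 with 1 RPKM added, -1.69 under scaling to Gapdh and -1.69 with each library rescaled to the same sum, which follows from the shift of all genes by -0.49 and -0.48. It was -0.50 without the filter and -0.61 with the filter at 5 RPKM, which count 9 and 6 members. Without the filter, 5 genes of the complement list were more than 2-fold higher instead of 3 and 8 lower instead of 6. Calls over all genes were 1878 lower and 1205 higher without the filter and 350 and 511 with the filter at 5 RPKM, of fewer genes. No paired analysis was possible because there is a single library for WT and for Kai1 KO. Depth limits Cfb, with about 48 reads in Kai1 KO, and Fcna, with about 7.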
